A study of Mus musculus with 6 samples.

Results

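The genes described here are 10 that mark macrophages and other myeloid cells, namely Cd163, Mrc1, Marco, Fcgr3, Csf1r, Adgre1, Itgam, Cd14, Cd68 and Lyz2. They were chosen by name, and every probe whose accession in the scanner files led to one of them through a RefSeq table (assembly GRCm38.p6) was taken. That gave 11 probes of 8 genes, and all 8 were among the 22751 genes tested. Csf1r, the receptor for the growth factors that keep macrophages alive, and Cd68, a lysosomal membrane protein, had no probe named this way and have no value here.

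The material was back skin of C57/BL mice given cyclosporin A, an immunosuppressant that acts through cyclophilins on the phosphatase calcineurin, or its ethanol control. Skin was sampled at 2, 4 and 7 days, with 2 dual-colour Agilent arrays for each day. Every array carried cyclosporin A RNA in Cy5 and ethanol RNA of the same day in Cy3, so a log2 ratio above 0 means a higher signal after cyclosporin A. The series text calls the replicates biological but the labels name no animals, so every p-value rests on the spread between these samples alone. Dose, age and sex are not given in the sources used here. The dyes were never swapped, and the slide of day 7 held no array of another day, so dye and treatment, and slide and day 7, cannot be told apart.

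Skin holds resident macrophages in the dermis and around the hair follicles, and it takes in monocytes from blood when it is injured or inflamed. Macrophages take up debris, microbes and haemoglobin through scavenger receptors and lectins, bind antibody-coated particles through Fc receptors, and sense bacterial products through CD14 and Toll-like receptors. Several of these genes are also transcribed in neutrophils, dendritic cells or natural killer cells. In RNA from whole skin, fewer cells of a type and less RNA per cell cannot be told apart.

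Before the values, the stretch of 250 bases ahead of a start site is shown for 3 of the genes, credited to RefSeq (GRCm38.p6), 5' to 3' on the gene's own strand. Cd163 and Fcgr3 had the lowest ratios at day 7 among the genes with a window in the table, apart from Marco, and Mrc1 stood at 0.06. Capitals mark GAGGAA or its reverse complement TTCCTC, a form of the site to which the myeloid factor PU.1 and other ETS proteins can bind. Shorter or other forms, such as GGAA alone, were not marked or counted. The windows are chr6:124304401-124304650 (plus strand) for Cd163, chr1:171059404-171059653 (minus strand, 1 of 2 listed start sites) for Fcgr3 and chr2:14229164-14229413 (plus strand) for Mrc1.
Cd163: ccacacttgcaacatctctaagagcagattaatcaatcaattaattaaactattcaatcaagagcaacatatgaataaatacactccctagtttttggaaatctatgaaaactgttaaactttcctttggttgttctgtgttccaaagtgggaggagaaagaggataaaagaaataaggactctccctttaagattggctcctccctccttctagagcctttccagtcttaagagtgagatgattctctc
Fcgr3: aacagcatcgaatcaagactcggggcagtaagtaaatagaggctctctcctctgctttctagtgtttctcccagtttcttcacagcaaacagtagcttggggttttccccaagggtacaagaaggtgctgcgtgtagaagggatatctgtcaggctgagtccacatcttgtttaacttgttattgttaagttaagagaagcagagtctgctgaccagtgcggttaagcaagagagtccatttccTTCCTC
Mrc1: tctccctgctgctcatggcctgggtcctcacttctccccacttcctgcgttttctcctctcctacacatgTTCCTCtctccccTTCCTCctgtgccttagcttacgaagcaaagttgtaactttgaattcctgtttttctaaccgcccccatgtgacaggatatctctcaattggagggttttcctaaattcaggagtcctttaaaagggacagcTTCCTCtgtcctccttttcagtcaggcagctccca
The Cd163 window held 0 matches, the Fcgr3 window 1 and the Mrc1 window 3. Of the windows not shown, Lyz2 had 0, Marco 1 and Cd68 1, and Itgam had 1 on each strand. Of the listed genes, 7 were in the table with 8 start sites, and 6 of those sites (5 genes) had a match on either strand. Across the 32851 start sites of the table, 7639 (23.25%) had one. A match is a description of the letters in the window and was set against no binding data.

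At day 7, the latest time sampled, 7 of the 8 genes had ratios below 0 on both arrays, against 28.9% of all genes with values on both. The lowest day means were those of Marco, Cd163, Fcgr3 and Cd14, between -1.13 and -0.78, and Mrc1 had the 1 mean above 0. None of the 8 passed the test at day 7, where limma called 2.99% of all genes and 0.642% lower at a Benjamini-Hochberg adjusted p under 0.05. At an unadjusted p under 0.05, those 4 genes were lower, against 8.42% of all genes. Over all 3 days, Cd163 was the 1 gene of the 8 that passed, 1.54-fold lower, where 13.1% of all genes were called, so the share among the 8 was near that of all genes. Its call was lost under most of the alternatives tried.

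Cd163 is the receptor by which macrophages clear complexes of haemoglobin and haptoglobin. Its log2 ratios were -0.33 and -0.42 on the arrays of day 2, -0.03 and -0.79 at day 4, and -1.59 and -0.60 at day 7. It was below 0 on 6 of 6 arrays, furthest at day 7 replicate 1 and least at day 4 replicate 1, and the ranges of days 4 and 7 overlapped. The mean over days was -0.63 (SE 0.15, n = 6 arrays), and it fell by this measure with a limma adjusted p of 0.0434, where 3.41% of all genes were called lower. The call was lost when any array but day 7 replicate 2 was left out (adjusted p 0.0793 without day 4 replicate 1 to 0.156 without day 4 replicate 2), and under median centring, where the mean was -0.15 (adjusted p = 0.406). From the deposited ratios the mean was -0.52 (adjusted p = 0.0753), and over the slide that held days 2 and 4 it was -0.39 (adjusted p = 0.209). At day 7 alone it was -1.10 (SE 0.26, 2.14-fold lower, limma adjusted p = 0.084). From deposited ratios the day 7 mean was -0.88 (adjusted p = 0.158), with -1.12 on replicate 1 in place of -1.59.

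In the separate channels, the ethanol signal of Cd163 was 8575 and 8845 normalized intensity units at day 2, 6352 and 7828 at day 4, and 7137 and 7190 at day 7. The cyclosporin A signal was 6823 and 6609 at day 2, 6238 and 4514 at day 4, and 2367 and 4746 at day 7. In both channels the samples of day 7 lay below those of day 2, and after cyclosporin A day 4 replicate 2 lay below day 7 replicate 2.

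Mrc1 encodes the mannose receptor CD206, a lectin that takes up glycoproteins in tissue macrophages. Its ratios were 1.22 and -0.12 at day 2, 0.00 and -0.14 at day 4, and 0.18 and -0.06 at day 7. A single array, day 2 replicate 1, stood apart, and the other 5 lay within 0.2 of 0. There the cyclosporin A signal was 5595 against 2406 in ethanol, and on the other array of day 2 it was 2746 against 2979. The mean over days was 0.18 (SE 0.16, limma adjusted p = 0.485), and it was -0.04 without day 2 replicate 1 and 0.40 (adjusted p = 0.0474) without day 2 replicate 2. Median centring, which sets every array's median ratio to 0 with no loess step, put it at 0.58 (adjusted p = 0.011).

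Marco is a scavenger receptor of the class A family that binds bacteria and particles. Its ratios were -1.0 and -0.28 at day 2, -0.12 and 1.72 at day 4, and -1.40 and -0.85 at day 7. The 2 arrays of day 4 lay on either side of 0, and day 4 replicate 2 was the 1 array of 6 above it. On that array the ethanol signal was 972, the lowest ethanol value of Marco, and the cyclosporin A signal 3194, its highest in that channel. The day 7 mean was -1.13 (SE 0.41, 2.19-fold lower, limma adjusted p = 0.176). The day 4 mean of 0.80 (SE 0.41) had an adjusted p of 0.412, and without day 4 replicate 2 it was -0.12. Under median centring it was 1.12 (adjusted p = 0.0497).

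Marco also had the widest gap between days among the 8 genes. The difference of day 7 minus day 4 was -1.93 log2 units (SE 0.58, limma adjusted p = 0.934). Among all genes, 0.202% were called for day 7 against day 4, 0.264% for day 7 against day 2 and 0% for day 4 against day 2 by limma, where 510 genes (2.24%) had an unadjusted p under 0.05. None of the 8 was called in any of these comparisons. At an unadjusted p under 0.05, Marco was the 1 gene of the 8 that differed between days 7 and 4 (4.47% of all genes did), and also between days 4 and 2 (1.44, SE 0.58). In the ethanol channel alone, Marco was 0.97 higher at day 7 than at day 2 (SE 0.32, limma adjusted p = 0.332), with signals of 3685 and 2835 at day 7 against 1780 and 1531 at day 2. The ethanol samples of the 2 days did not overlap. In that channel 0.0352% of all genes were called between these days, and 1% in the cyclosporin A channel, and none of the 8 was called in either.

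**Figure D1:**
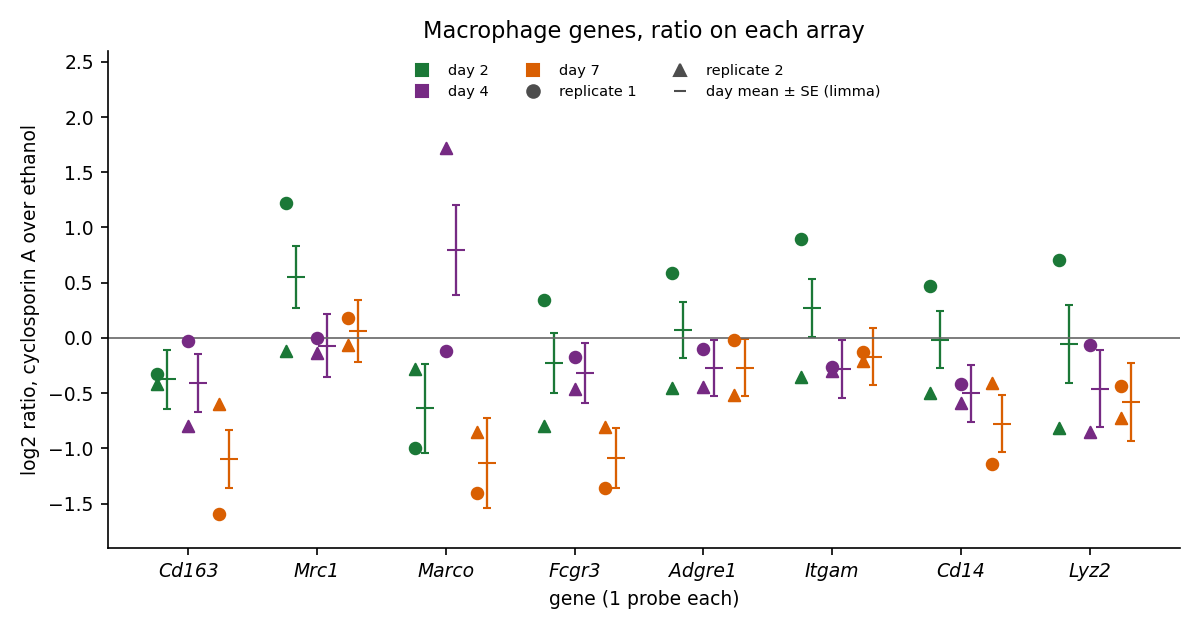
Log2 ratio of cyclosporin A over ethanol (y axis) on each of the 6 arrays for the 8 genes with a probe (x axis). Colour gives the day, circles are replicate 1 and triangles replicate 2, and bars are the limma day mean with its SE. At day 7 both arrays are below 0 for 7 genes, with Mrc1 the exception, and under median centring Adgre1 and Lyz2 also have day 7 means above 0.

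Fcgr3 encodes a low-affinity receptor for IgG, carried by macrophages, natural killer cells and neutrophils. Its brighter probe (A_51_P328613) gave 0.34 and -0.79 at day 2, -0.18 and -0.46 at day 4, and -1.36 and -0.81 at day 7. Both arrays of day 7 were below all arrays of the other days, though day 2 replicate 2 lay almost level with day 7 replicate 2. The day 7 mean was -1.09 (SE 0.27, 2.12-fold lower, limma adjusted p = 0.0915), and the mean over days was -0.54 (SE 0.16, adjusted p = 0.0645). Without day 2 replicate 1, without day 2 replicate 2 or without both, the day 7 mean was unchanged and its adjusted p was 0.0351. The mean over days was -0.73 (adjusted p = 0.0367) without day 2 replicate 1 and -0.70 (adjusted p = 0.0306) without both arrays of day 2. It was -0.35 (adjusted p = 0.105) without day 2 replicate 2, -0.09 (adjusted p = 0.638) under median centring and -0.37 (adjusted p = 0.192) from deposited ratios.

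The second Fcgr3 probe (A_52_P408757) gave 0.68 and -0.50 at day 2, -0.03 and -0.29 at day 4, and -0.65 and -0.45 at day 7. Its order over the arrays was like that of the brighter probe (Pearson r = 0.946 over 6 arrays, which the probes share), but its day 7 values were closer to 0. With the mean of both probes, day 7 stood at -0.82 (adjusted p = 0.15) and the mean over days at -0.38 (adjusted p = 0.14). The deposited ratio of the brighter probe at day 7 replicate 1 was -0.64, against -1.36 from the median signals, and the day 7 mean from deposited ratios was -0.72 (adjusted p = 0.264). The cause of that gap was not tested. The cyclosporin A signal of the brighter probe was 8179 and 5114 at day 2 and 2495 and 3905 at day 7, a difference of -1.05 (SE 0.29, limma adjusted p = 0.167). In ethanol the same difference was -0.19 (SE 0.22), so most of the gap between these days lay in the cyclosporin A channel.

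Adgre1 encodes F4/80, the adhesion G protein-coupled receptor used as the standard surface marker of mouse macrophages. Its ratios were 0.59 and -0.45 at day 2, -0.10 and -0.44 at day 4, and -0.02 and -0.52 at day 7. Replicate 2 was the lower array on every day, although the labels do not say that replicate numbers pair samples of different days. The ranges of the days overlapped. The day 7 mean was -0.27 (SE 0.25, limma adjusted p = 0.566), and 0.19 under median centring. The second Adgre1 probe, with an ethanol signal well above background on 3 of 6 arrays, gave 0.18 and -0.31 at day 2, 0.01 and -0.81 at day 4, and -0.19 and -0.16 at day 7 (r = 0.691 with the first over 6 arrays). It too had day 2 replicate 1 as its highest array.

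Itgam is the alpha chain of the integrin CD11b/CD18, the complement receptor of macrophages and neutrophils. Its ratios were 0.89 and -0.35 at day 2, -0.27 and -0.30 at day 4, and -0.12 and -0.21 at day 7. Day 2 replicate 1 alone was above 0, and the arrays of days 4 and 7 lay close together. The day 7 mean was -0.17 (SE 0.26, limma adjusted p = 0.735), and the mean over days was -0.06 (adjusted p = 0.814). Without day 2 replicate 2 the mean over days was 0.15, with no call. The signals of Itgam were the lowest of the listed genes tested, at 256 to 374 normalized intensity units in ethanol and 237 to 475 after cyclosporin A. Its deposited ratios kept their direction on every array but lay further from 0, with 1.35 at day 2 replicate 1 and -0.33 at day 7 replicate 1.

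Cd14 is the co-receptor that hands bacterial lipopolysaccharide to the Toll-like receptor Tlr4 and its partner Ly96. Its ratios were 0.47 and -0.50 at day 2, -0.41 and -0.59 at day 4, and -1.14 and -0.41 at day 7. All arrays but day 2 replicate 1 were below 0, and day 7 replicate 2 lay level with day 4 replicate 1. The day 7 mean was -0.78 (SE 0.26, 1.71-fold lower, limma adjusted p = 0.155), and -0.50 (adjusted p = 0.33) from deposited ratios. The mean over days was -0.43 (SE 0.15, adjusted p = 0.0993), and -0.64 (adjusted p = 0.0442) without the day 2 arrays. It was -0.27 (adjusted p = 0.214) without day 2 replicate 2 alone and -0.10 (adjusted p = 0.588) under median centring.

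Lyz2 encodes lysozyme M, the bacteria-degrading enzyme that macrophages and granulocytes secrete. Its brighter probe gave 0.71 and -0.82 at day 2, -0.06 and -0.86 at day 4, and -0.44 and -0.72 at day 7. Again day 2 replicate 1 alone was above 0. The second probe gave 0.16 and -1.21, then -0.32 and -0.88, then -0.71 and -0.83 for the same arrays, with r = 0.964 between the probes over 6 arrays. The day 7 mean was -0.58 (SE 0.35, limma adjusted p = 0.369). Under median centring the direction turned, with 0.31 at day 7 and 0.50 (adjusted p = 0.0377) over all days. Lyz2 has a near-identical paralog, Lyz1, whose probe stood at -0.94 at day 7 (adjusted p = 0.163), and transcripts of either gene may bind probes of the other.

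The arrays of day 2 disagreed over these genes. On replicate 1, 6 of the 8 were above 0, with a median of 0.53, and on replicate 2 all 8 were below 0, with a median of -0.44. The medians over all genes were 0.02 and 0.05. The 6 genes that stood above 0 on replicate 1 and below it on replicate 2 were Mrc1, Fcgr3, Adgre1, Itgam, Cd14 and Lyz2, and 20.2% of all genes did the same. Cd163 and Marco were below 0 on both. The gap between the arrays (replicate 1 minus replicate 2) had a median of 1.09 over the 8 genes and -0.03 over all genes, and at days 4 and 7 it was 0.23 and -0.23. Over all genes the 2 arrays of day 2 were nearly uncorrelated (r = 0.0077), against 0.426 at day 4 and 0.589 at day 7. The genes were picked with this disagreement already known, so it is given as a description.

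None of the 8 genes was called at day 2, where limma called 0% of all genes (0 of 22750) and 2202 had an unadjusted p under 0.05 (9.68%). The day 2 means ran from -0.64 for Marco to 0.55 for Mrc1 (SE 0.28, limma adjusted p = 0.58), with a median of -0.04. Each mean of the 6 genes that changed side averages a positive and a negative array. Leaving out replicate 1 gave a median of -0.44 over the 8 genes and leaving out replicate 2 gave 0.53. Under median centring Mrc1 was called at day 2 (0.97, adjusted p = 0.035).

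**Figure D2:**
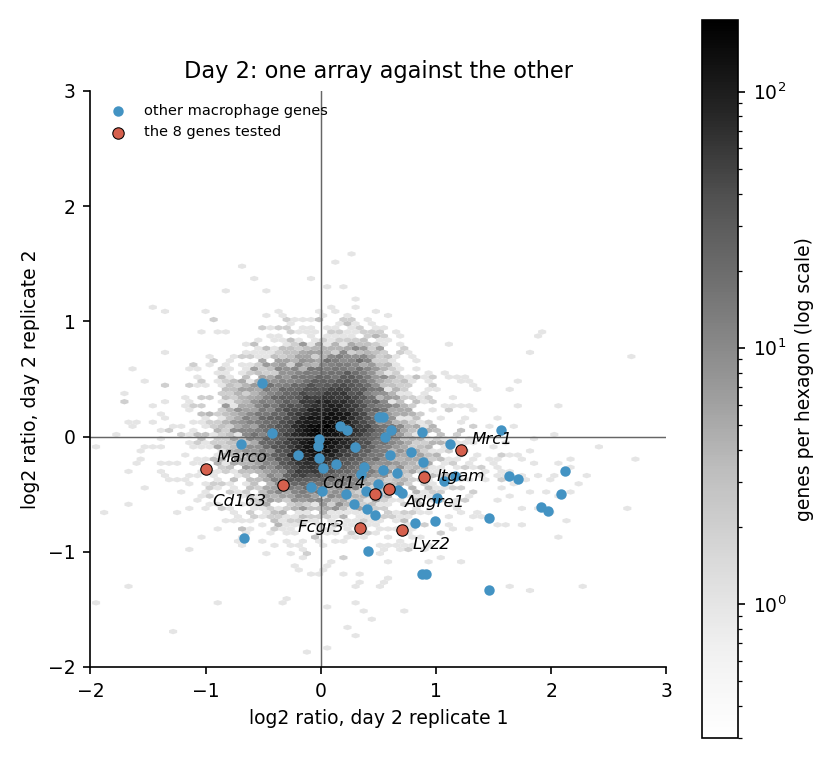
Log2 ratio of cyclosporin A over ethanol on day 2 replicate 1 (x axis) against day 2 replicate 2 (y axis). Grey hexagons count all genes on a log scale, red points are the 8 genes and blue points the other macrophage genes of 8 lists, with axes from -2 to 3 that leave out 10 genes. 6 of the 8 red points lie at right below the zero line, above 0 on replicate 1 and below 0 on replicate 2.

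Both dyes moved with that gap. From replicate 2 to replicate 1, the ethanol signal was lower for 7 of the 8 genes (median difference -0.36), Marco being the exception at 0.22. The cyclosporin A signal was higher for 7 of the 8 (median 0.65), Marco again the exception at -0.50. Over all genes the 2 medians were 0.01 and -0.02. For Lyz2 the ethanol signal was 76014 on replicate 1 and 137482 on replicate 2, while the cyclosporin A signal was 124106 and 78136. For Cd14 the ethanol signals were 1678 and 2679, and those of cyclosporin A 2318 and 1892. Cd163 differed by 0.05 or less in size in both channels, so its 2 arrays of day 2 were alike.

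**Figure D3:**
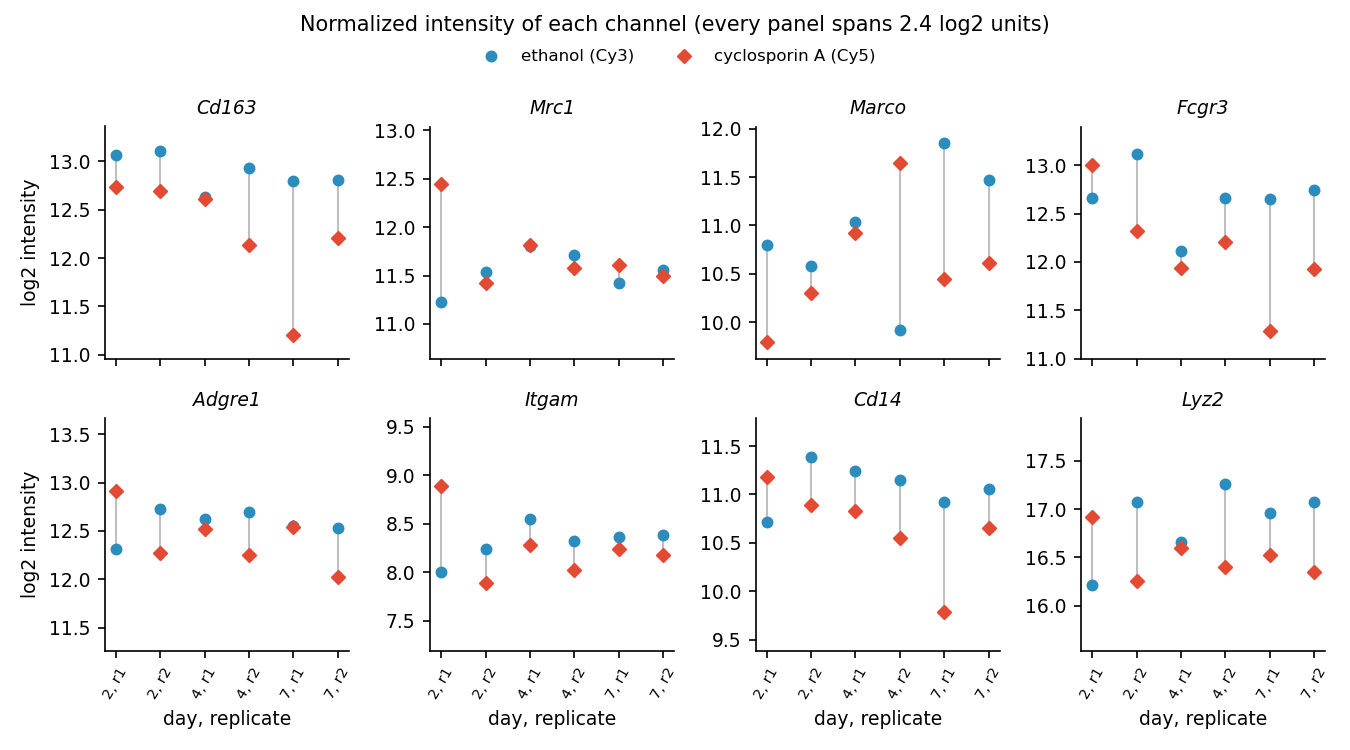
Normalized log2 intensity (y axis, each panel spanning 2.4 log2 units) of the ethanol sample (blue circles, Cy3) and the cyclosporin A sample (red diamonds, Cy5) on each array (x axis, day and replicate) for the 8 genes. On day 2 replicate 1 the red point lies above the blue for 6 genes, and at day 7 it lies below for 7.

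At day 4, 6 of the 8 genes were below 0 on both arrays, against 27.5% of all genes, and Mrc1 and Marco were not. The medians were -0.11 on replicate 1 and -0.45 on replicate 2. None was called, and among all genes limma called 0.0044% (1 gene), with 3404 (15%) at an unadjusted p under 0.05. The lowest day 4 means were -0.50 for Cd14 (SE 0.26, limma adjusted p = 0.417), -0.46 for Lyz2 (SE 0.35, adjusted p = 0.58) and -0.41 for Cd163 (SE 0.26, adjusted p = 0.509). Under median centring the median of the 8 genes at day 4 turned from -0.30 to 0.16, and at day 7 it went from -0.68 to -0.32. Day 2 had a median of 0.31 and the mean over days one of -0.03 in that setting, while the medians over all genes stayed between 0.01 and 0.06.

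Set against the mean of the other 7, Fcgr3 had the most similar course over the 6 arrays (r = 0.973) and Cd14 the next (0.873). Lyz2 (0.692), Itgam (0.686), Mrc1 (0.648), Adgre1 (0.605) and Cd163 (0.516) were less alike. Marco ran apart (-0.21). Among 9806 other genes with both channels well above background on every array, those most like the mean course of the 8 were Ctss (r = 0.992 over 6 arrays), Gprc5c (0.988), Cyba (0.985), Snx20 (0.979) and Batf (0.974). Ctss encodes the lysosomal protease cathepsin S and Cyba a subunit of the phagocyte NADPH oxidase. The ratios of Ctss were 0.39 and -0.47 at day 2, -0.17 and -0.21 at day 4, and -0.85 and -0.46 at day 7. These correlations share the arrays and the genes were selected for them, so they describe the course and no more.

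Other genes linked to macrophages, among them ligands and binding partners that other cells also make, came from 8 lists of 59 genes in all. Of these, 55 were tested. Above 0 on day 2 replicate 1 and below it on replicate 2 were 39 of the 55, against 20.2% of all genes, and their medians on those arrays were 0.54 and -0.33. At day 7 the medians were -0.21 and -0.23, with 32 of 55 below 0 on both arrays, against 28.9% of all genes. Of the 55, 1 gene (Il34) was called at day 7, where 2.99% of all genes were. Over all days 3 were called (Il34, Icam1 and Cebpa), where 13.1% of all genes were. All were lower, and none was called at day 2 or day 4. As described below, keratinocytes make Il34 and Cebpa also acts in keratinocytes and fat cells, so these calls are not of macrophage markers.

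Among the scavenger receptors and lectins (11 tested), 10 changed side between the day 2 arrays. Siglec1, the sialic acid receptor CD169 of macrophages, had 1.97 and -0.65 at day 2, -0.78 and -0.74 at day 4, and 0.45 and 1.01 at day 7. It thus lay above 0 on both arrays of day 7, unlike Cd163. Cd36, Colec12, Msr1 and Vsig4 did too, so that 5 of the 11 were above 0 on both (38.3% of all genes). Another 5 were below 0 on both (28.9% of all genes), and the median day 7 mean of the list was 0.17. Mgl2, a galactose-binding lectin of dermal macrophages and dendritic cells, stood at -1.70 and -0.79 at day 7 (mean -1.25, limma adjusted p = 0.0758), and 0 of the 11 were called at any day or over all days.

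Of the Fc receptors and adaptors (7 tested), 6 changed side at day 2 and 0 were called. Fcgr1, the high-affinity IgG receptor, had 2.08 and -0.50 at day 2, -0.62 and -0.13 at day 4, and -0.81 and 0.58 at day 7. Its arrays of day 7 lay on either side of 0, where those of Fcgr3 were both below. Trem2, a lipid-sensing receptor of macrophages, had 1.46 and -1.33 at day 2 and -0.98 and -0.72 at day 7.

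The growth factors of the missing receptor Csf1r were measured. Il34, which keratinocytes make and which sustains Langerhans cells, had -0.69 and -0.07 at day 2, -0.38 and -0.12 at day 4, and -0.78 and -1.15 at day 7. It was below 0 on 6 of 6 arrays and fell at day 7 (-0.97, SE 0.18, limma adjusted p = 0.0468) and over all days (-0.53, adjusted p = 0.0265). The day 7 call held in 5 of 15 settings. With 1 array left out it held in 2 of 6 cases, those without an array of day 2, and was lost without any other array (adjusted p up to 0.244). It was lost under median centring (-0.51, limma adjusted p = 0.0792), on processed signals (0.198) and on deposited ratios (0.199). Scale normalization (0.0957), no filter on dim probes (0.0569) and a replicate block (0.0839) lost it too. The value over all days was -0.07 (adjusted p = 0.625) under median centring, and its call was also lost on deposited ratios (adjusted p = 0.11) and without any array but day 2 replicate 2 (adjusted p up to 0.102). Csf1, the other ligand, had 1.17 and -0.34 at day 2 and -0.75 and -0.11 at day 7, and was not called (adjusted p = 0.476 at day 7).

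Partners of Cd14 and of Itgam followed. All 7 of the Toll-like receptor partners tested changed side at day 2, and 0 were called. Ly86, a lipopolysaccharide-responsive protein paired with Cd180, had 0.40 and -0.63 at day 2 and -0.61 and -0.50 at day 7. Of 4 integrin partners, Icam1, the adhesion ligand of the beta 2 integrins, fell over all days (-0.38, SE 0.08, limma adjusted p = 0.0338) and was below 0 on 6 of 6 arrays, a call that held without day 2 replicate 1 and was lost without each other array (adjusted p up to 0.134). Itgb2, the beta chain that pairs with Itgam, had 0.49 and -0.41 at day 2 and -0.92 and -0.31 at day 7 (adjusted p = 0.2).

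Among the effectors (9 tested), 7 changed side at day 2 and 0 were called. C1qa and C1qb, chains of the complement protein C1q that macrophages make, had 0.91 and -1.2, and 0.88 and -1.19, on the arrays of day 2. At day 4 they stood at -0.68 and -1.18, and at -0.70 and -1.35. At day 7 both were lower on replicate 1 (-1.48 and -0.68) than on replicate 2 (-0.13 and -0.10), with means of -0.80 and -0.39. Of 6 myeloid transcription factors, Cebpa, which also acts in keratinocytes and fat cells, fell over all days (-0.82, SE 0.11, limma adjusted p = 0.0135) and was below 0 on 6 of 6 arrays. Its call held without each array in turn except day 4 replicate 2 (adjusted p = 0.0785). Spi1, which encodes PU.1, stayed between -0.31 and 0.04 on all arrays, with an ethanol signal well above background on 3 of 6.

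Monocyte recruitment genes (6 tested, 0 called) had the highest list median of day 2 replicate 1, at 1.42. Ccl2, Ccl7 and Ccl12, chemokines that draw in monocytes through Ccr2, stood at 1.72, 1.91 and 2.12 there and at -0.37, -0.61 and -0.30 on replicate 2. At day 4 replicate 2, where Marco was highest, they stood at 1.13, 1.13 and 0.85, against -0.28, -0.56 and -0.50 on replicate 1. Ccr2 itself had 0.37 and -0.27 at day 2 and -0.31 and -0.94 at day 7 (limma adjusted p = 0.147).

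**Figure D4:**
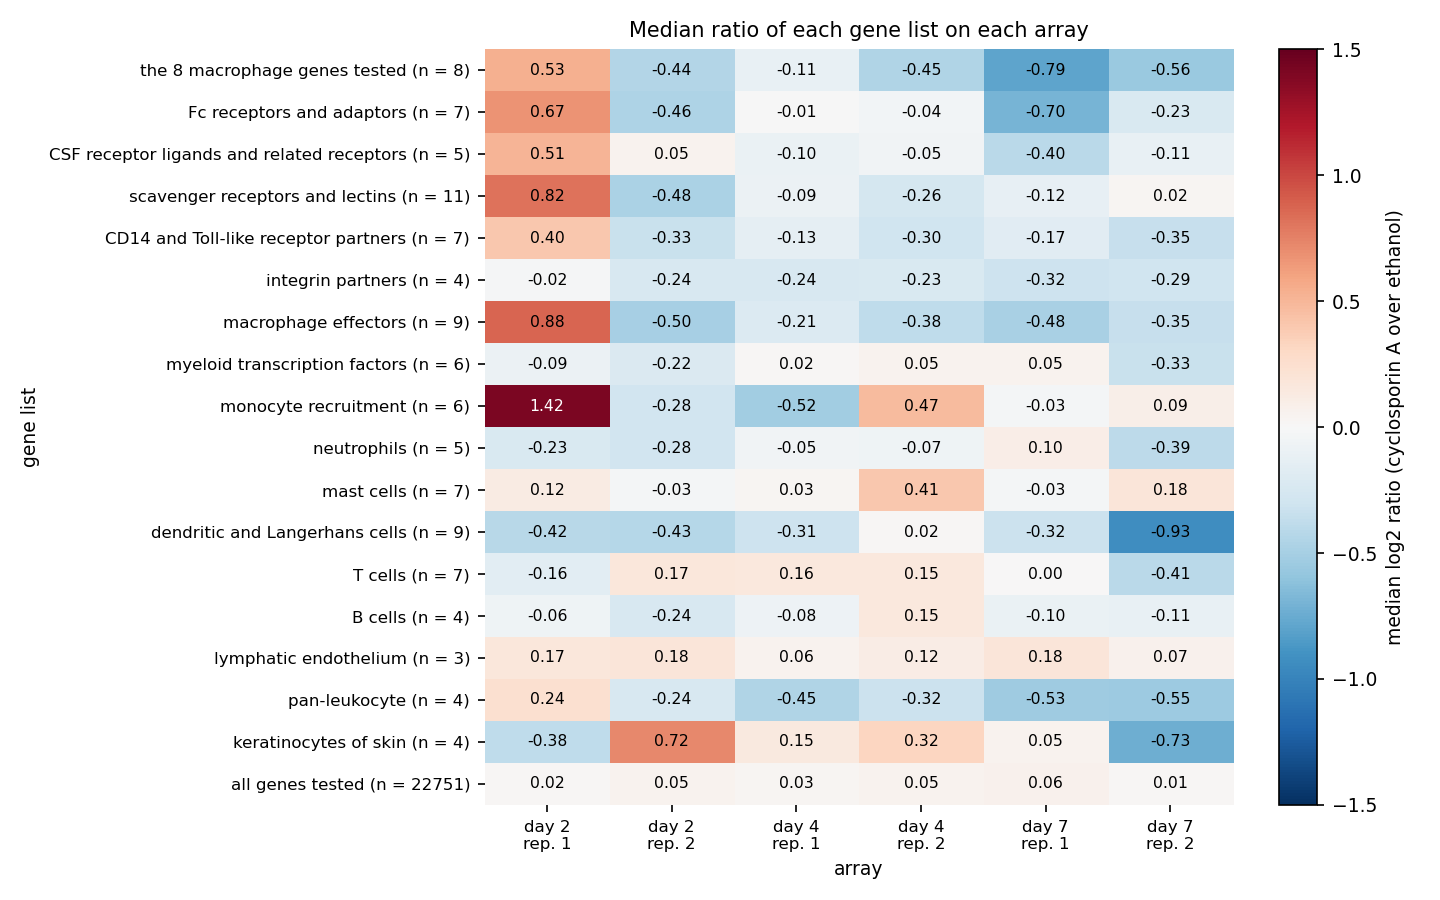
Median log2 ratio of cyclosporin A over ethanol (colour and printed value) of each gene list (y axis, with the number of genes tested) on each array (x axis). The 8 genes go from 0.53 on day 2 replicate 1 to -0.79 on day 7 replicate 1, while all genes stay between 0.01 and 0.06; under median centring the median of the 8 genes is above 0 at days 2 and 4.

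Genes of other cell types moved beside these values. Of 9 dendritic and Langerhans cell genes, Cd74, H2-Aa and H2-Eb1, which serve antigen presentation by MHC class II, fell at day 7 (-1.46, -1.23 and -1.40, limma adjusted p = 0.0169, 0.00738 and 0.0172) and over all days. Their day 7 calls were lost without either array of day 7 (adjusted p 0.0585 to 0.138), on deposited ratios (0.0531 to 0.0647) and on processed signals (0.0611 to 0.0736). Those over all days were lost under median centring (adjusted p 0.0595 to 0.233) and without day 4 replicate 2 (0.0575 to 0.0739), and for Cd74 and H2-Eb1 also without day 4 replicate 1 (0.0582 and 0.0614). That list had 8 of 9 genes below 0 on both arrays of day 7, 0 that changed side at day 2, and a summed signal of 69619 to 106932 in ethanol and 47702 to 76502 after cyclosporin A. The exception was Cd207, with 0.45 and 0.65 at day 4, 0.17 and -0.30 at day 7 and a mean over days of 0.19 (limma adjusted p = 0.282). Over all days Xcr1 stood at 0.0007 and Zbtb46 at -0.05, so the calls of this list were of MHC class II genes alone. Macrophages also transcribe MHC class II genes. Ptprc, the leukocyte antigen CD45, had 0.16 and -0.15 at day 2, -0.51 and -0.40 at day 4, and -0.73 and -0.82 at day 7. It fell at day 7 (-0.77, SE 0.12, adjusted p = 0.0318), a call that held without either array of day 2 and was lost without each other array (adjusted p up to 0.173). Under median centring it was -0.39 (adjusted p = 0.0998). The day 7 call of Ptprc was also lost on processed signals (limma adjusted p = 0.0951), deposited ratios (0.0916), scale normalization (0.0605) and a replicate block (0.0684). All 4 pan-leukocyte genes were below 0 on both arrays of that day.

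Of 11 neutrophil genes, 5 were tested, and Elane, Ngp, Camp, Mmp8 and Retnlg had probes that did not pass the background filter. S100a9 fell over all days (-0.90, SE 0.22, limma adjusted p = 0.0434), with 0.75 at day 4 replicate 2 and the other 5 arrays at -0.73 or lower, and its call was lost whichever array was left out (adjusted p 0.0633 to 0.122). Mpo, a granule enzyme, also had a high array at day 4 replicate 2 (1.36, against -0.03 on replicate 1), the array on which Marco was highest. The neutrophil genes differed in direction at day 7, where Mpo stood at 1.84 and 0.18 and Ltf at 0.27 and 0.17. S100a8 had -1.13 and -1.18 there, S100a9 -1.02 and -2.09 and Cxcr2 0.10 and -0.39. The ethanol signal of Ltf was well above background on 0 of 6 arrays. The summed neutrophil signal ran from 2144 to 6978 in ethanol and from 2337 to 4557 after cyclosporin A. Their part in the values of Fcgr3, Itgam, Lyz2 and Marco was not tested.

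Of 7 T cell genes, Cd5 fell over all days (-0.43, limma adjusted p = 0.0308), with the call lost without any array but day 2 replicate 2. Cd3e (0.15) and Cd4 (0.17) were above 0 over all days and Cd28 (-0.22) below, and the median of the 7 was -0.01. Of the B cell genes 0 of 4 were called, and of the lymphatic genes 0 of 3. Lyve1, carried by lymphatic vessels and by a class of dermal macrophages, had 2.68 and 0.69 at day 2, -0.51 and 0.74 at day 4, and 0.18 and 1.78 at day 7. Its highest array was day 2 replicate 1, as for Mrc1. Of 7 mast cell genes, Ms4a2 was called higher over all days (adjusted p = 0.0248), but its ethanol signal was not well above background on any array and the direction turned under median centring.

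The tissue label was checked on keratinocyte genes, of which Krt1, Krt5, Krt10 and Krt14 were tested, with a summed signal of 230004 to 407912 in ethanol and 247920 to 408963 after cyclosporin A. Their median ratio was -0.38 and 0.72 on the arrays of day 2 and 0.05 and -0.73 on those of day 7. At day 2 all 4 were lower on replicate 1 than on replicate 2, as Marco was, while the 6 macrophage genes that changed side were higher on replicate 1 and Cd163 was about level. The part of tissue makeup in the macrophage values was not tested.

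Over the series, median Cy3 signals were 203 to 277 and median Cy5 signals 134.5 to 187 per array, and 0 spots were saturated. The brightest probe of each of the 8 genes had both channels well above background on 6 of 6 arrays. With 2 arrays a day, their number limits the precision of every mean.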

How the data were processed

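Per the file headers, the deposited scanner output gives a median pixel intensity per spot and dye, local backgrounds and processed signals. Agilent Feature Extraction 9.1 is named in the submitters' processing notes. The authors' deposited value table has log10 ratios (Cy5 over Cy3) that equal the ratio column of the scanner output (largest difference 0) and served as an alternative. Replicates were numbered by sample title, since every description reads as the first of its pair.

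Background correction of the median intensities used normexp (offset 50), followed by loess within arrays, in limma 3.58.1 (R 4.3.3, with the data.table package, version 1.17.8). Controls (1639 of 45018 spots) and outlier spots (15 to 126 per array) were left out. Spots of a probe were averaged (41174 probes). A probe was kept (27938) if, on both arrays of some day, it was well above background in at least 1 dye. By accession 22951 probes were named, 67 by synonym, and 18156 not. The brightest probe stood for a gene. A mean for each day was fitted to all 6 arrays (3 residual and 3.76 prior degrees of freedom), and Benjamini-Hochberg adjustment covered all genes tested. Channels were fitted after Aquantile scaling, which gives all arrays the same distribution of mean log2 intensity, and signals are printed on the linear scale. The code was tested on simulated data. A gene "changed side" at day 2 if it was above 0 on replicate 1 and below 0 on replicate 2.

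All 10 genes and every probe of them were described, with up to 4 genes of each other list by the size of their mean ratio, called genes first, and the 5 genes most like the mean course. The genes and lists were chosen with earlier results of these data known. Alternatives were processed signals, deposited ratios, median centring, scale normalization, 2 other filters, the mean over probes, a replicate block, 1 slide alone, each array left out, and, added after seeing the data, both day 2 arrays left out.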

Additional observations from a re-analysis of the deposited data

How the results depend on the processing

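Of 496 values of the 8 genes under these alternatives (4 contrasts each), 442 kept their direction and side of the threshold. Of the rest 33 turned direction, 11 lost a call and 10 gained one, and the causes were not tested. Only 1 of the 32 main results was a call, Cd163 over all days, and it held in 5 of 16 settings. The other results kept their side by staying uncalled, and leaving out an array of another day cannot change a day mean. The 442 is thus no measure of robustness. Median centring turned, at day 2, Cd163 to 0.12, Fcgr3 to 0.27, Cd14 to 0.36 and Lyz2 to 0.75, and at day 4 Cd163 to 0.0618, Mrc1 to 0.32, Fcgr3 to 0.12, Adgre1 to 0.19 and Lyz2 to 0.46. It turned Adgre1 (0.19) and Lyz2 (0.31) at day 7, and Marco (0.0075), Adgre1 (0.31) and Lyz2 (0.50) over all days, and the mast cell gene Ms4a2 to -0.228. It called 5302, 3960, 4490 and 12667 genes at days 2, 4, 7 and over all days, 87 for day 7 against 4, 108 for day 7 against 2 and 361 in the cyclosporin A channel. Of the 8 genes it called 1 at day 2, 1 at day 4 and 2 over all days, with a day 4 median of 0.16. Of its day 7 calls 66.9% were higher, against 78.5%, and over all days 53.0% against 73.9%; the strict filter gave 60.7% and no filter 56.9% over all days, and deposited ratios 91.3% at day 7.

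Processed signals and deposited ratios alike put Cd14 at 0.00083 at day 2 and Mrc1 at -0.0905 at day 7. Processed signals called 0 genes at day 4, 221 at day 7 and 1191 over all days, 1 in the ethanol and 1117 in the cyclosporin A channel, and deposited ratios called 287 at day 7 and 1680 over all days; each called 0 of the 8 over all days. Scale normalization put Cd14 at 0.0093 at day 2 and called 0 genes at day 4 and 316 at day 7. The filter on both channels called 0 at day 4, 365 at day 7, 1097 over all days, 8 and 11 for day 7 against days 4 and 2, and 0 and 89 in the ethanol and cyclosporin A channels; no filter called 0 at day 4 and 5419 over all days.

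The slide with days 2 and 4 called 0 genes at day 4 and 0 over all days, 0 of the 8 among them, and put Marco at 0.0804 over all days. All calls over all days of the named genes of the other lists were lost there (adjusted p 0.109 to 0.269). Without both day 2 arrays 4 genes were called at day 4 and 1969 over all days, with 1 of the 8 at day 7 and 2 over all days, and Mrc1 stood at -0.0036. The labels do not say whether replicate numbers pair samples of different days. The gaps of replicate 1 minus replicate 2 correlated over genes at 0.0071, -0.28 and -0.02 between days, which cannot settle it. A replicate block called 0 at day 4, 330 at day 7, 1268 over all days and 0 of the 8 (Cd163 adjusted p = 0.0765), 39 for day 7 against 2 and 69 in the cyclosporin A channel.

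Leaving out 1 array gave 0 to 1 genes called at day 2, 0 to 4 at day 4, 147 to 688 at day 7, 27 to 1504 over all days, 0 to 1 for day 4 against 2, 17 to 78 for day 7 against 4, 28 to 88 for day 7 against 2, and 7 to 234 and 66 to 915 in the ethanol and cyclosporin A channels. Of the 8 genes it called 0 to 1 at day 7 and 0 to 1 over all days, with medians of -0.44 to 0.53 at day 2. It turned Mrc1 (-0.12 to 1.22), Fcgr3 (-0.79 to 0.34), Adgre1 (-0.45 to 0.59), Itgam (-0.35 to 0.89), Cd14 (-0.50 to 0.47) and Lyz2 (-0.82 to 0.71) at day 2, Mrc1 (-0.14 to 0.0033) and Marco (-0.12 to 1.72) at day 4, and Mrc1 (-0.0614 to 0.18) at day 7. Over all days it turned Mrc1 (-0.0415 to 0.40), Adgre1 (-0.33 to 0.0163) and Itgam (-0.27 to 0.15). A fit on mean pixel signals was not run, nor channel fits of deposited ratios or of 1 slide.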

Other observations

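Over all genes, the array of day 2 replicate 1 had its highest correlation with day 7 replicate 2 (r = 0.446), and day 2 replicate 2 with day 4 replicate 1 (r = 0.444), against 0.0077 between the 2 arrays of day 2. These are correlations across genes, which are not independent replicates, and each array holds other samples. Over the 8 macrophage genes, day 2 replicate 1 had the median of 0.53 and day 7 replicate 2 one of -0.56.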
